A study of Bos taurus with 8 samples.

Results

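The VEGF and angiopoietin system was followed through 10 genes, taken by their symbols from the 21880 genes of the deposited matrices. They comprised 5 ligands (VEGFA, VEGFC, VEGFD, ANGPT1 and ANGPT2) and 5 receptors (KDR, FLT1, FLT4, TEK and TIE1), and each symbol matched 1 row. The study profiled single cells of semitendinosus muscle from 10 Belgian Blue cattle, calves and adults of both sexes, at 5 timepoints. Timepoint 1 held unsorted cells straight from digested muscle, and Timepoint 2 held the adherent cells of 9 of these donors once they had spent 72 h in a medium without serum (P0). The cell type label at P0 lists sorted SCs and FAPs beside unsorted cells, whereas the protocol describes unsorted cells; the protocol was followed here, and sorting of some P0 cells would alter the shares of types. Timepoints 3, 4 and 5 held cultures at passages 2, 5 and 8 (P2, P5 and P8). In these cultures donors 1, 2 and 9 were unsorted, donors 5, 6 and 10 were sorted satellite cells (SCs), and donors 4, 7 and 8 were sorted fibro-adipogenic progenitors (FAPs); donor 3 was profiled in muscle alone. All donors of a timepoint were pooled in 1 library and separated afterwards by genotype, so the donor was the replicate, and timepoint and library cannot be told apart.

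VEGF ligands are secreted by many cell types and act through receptor tyrosine kinases that mark endothelium. VEGFA signals mainly through KDR (VEGFR2), FLT1 (VEGFR1) binds VEGFA tightly and also exists as a secreted decoy, and VEGFC and VEGFD act through FLT4 (VEGFR3), the receptor of lymphatic endothelium. The angiopoietins act through TEK (TIE2): ANGPT1, classically made by mural cells, activates it and stabilises vessels, ANGPT2, released by activated endothelium, acts on the same receptor as a context-dependent antagonist, and TIE1 is an orphan partner of TEK. In skeletal muscle a dense capillary bed runs along the fibres, with satellite cells, pericytes and FAPs close to it.

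The deposited annotation assigned 4395 cells of muscle, 9591 at P0, 8966 at P2, 10405 at P5 and 2772 at P8, with a median depth of 4184, 19375, 27240, 21620 and 18340 UMIs per cell. Muscle contained 1231 FAPs, 1166 vascular endothelial cells (VECs), 647 SCs, 548 smooth muscle and mesenchymal cells (SMMCs), 403 monocytes/macrophages (called macrophages here), 188 lymphocytes and 81 lymphatic endothelial cells (LECs), besides few neutrophils, myocytes, tenocytes and glial cells. FAPs made up 28.0% of cells in muscle and 60.0% at P0, VECs 26.5% and 8.66%, and cells labelled as endothelial were absent from P2 on. Labels were checked against marker lists: 11 vascular endothelial genes summed to 6277 counts per 1000000 UMIs (CPM) in muscle VECs, against 242 in FAPs and 159 in SCs, and 7 lymphatic genes summed to 12459 CPM in muscle LECs and to 15.4 in VECs. At P0 the lymphatic sum in LECs was 2171 CPM, with all 7 genes detected. At P0 the SC label did not lead on its own list, since 8 SC markers summed to 215 CPM in SCs and 352 in SMMCs. P0 macrophages held 2416 CPM of 8 monocyte and macrophage markers, against at most 41.4 in any other P0 type, and also 3530 CPM of 4 neutrophil markers. Between 4 and 29 cell barcodes were shared by each pair of libraries. Levels below are CPM of a member in the summed cells of a type, given as the mean ± SD over donors with at least 10 such cells. Counts came from the 3′ end of transcripts, so levels are compared within a gene and not between genes, and the secreted and membrane forms of FLT1 are not separated.

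In muscle the ligands came from different types, and the receptors were concentrated in endothelium. Types were defined by clustering the same expression values, and TEK served the study as an endothelial marker, so the ranking of types is a description with no test. VEGFA was the most widely spread ligand. Its highest mean level was in SMMCs (55.6 ± 24.3 CPM, n = 10 donors, lowest 10.2, median 50.9 and highest 87.2), followed by FAPs (38.7 ± 7.49, n = 10), macrophages (38.6 ± 28.0, n = 10), VECs (35.3 ± 14.2, n = 10), SCs (28.3 ± 10.8, n = 10) and LECs (22.9 ± 26.7, n = 4), and it was lowest in lymphocytes (6.36 ± 10.4, n = 10). Donor ranges overlapped between every pair of neighbours in this order. The 45 myocytes, too few per donor for a spread, held 25 VEGFA UMIs, or 150 CPM (95% exact Poisson interval 97.3 to 222, counting error only).

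VEGFC, the ligand of the lymphatic receptor, was shared by VECs, FAPs and SCs. The level was 90.5 ± 35.3 CPM in VECs (48.3, 77.5 and 135 as lowest, median and highest of 10 donors), 57.7 ± 22.1 in FAPs (33.2, 51.7 and 92.0) and 48.1 ± 33.8 in SCs (14.7, 41.6 and 133). These 3 types overlapped in their donor ranges, and SMMCs reached 7.01 ± 7.95 CPM. LECs, which carry its receptor, held no VEGFC UMI among 254421 in the 4 donors with at least 10 cells, which allows up to 11.8 CPM, and macrophages held 3 UMIs.

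Among the types with replicates VEGFD was restricted to FAPs. It stood at 68.8 ± 24.7 CPM there, with 21.1, 65.1 and 104 as the lowest, median and highest of 10 donors, while no donor exceeded 4.17 CPM in VECs, SCs, SMMCs, macrophages, lymphocytes or LECs. VEGFD UMIs were found in 27.5% of FAPs and in 0.744% of macrophages, at median depths of 6213 and 6108 UMIs per cell, and after thinning every cell to 2000 UMIs in 11.9% and 0.251%. FAPs held 533 of the 543 VEGFD UMIs in muscle, while 23 tenocytes held 2 and 45 myocytes held 1, too few cells per donor for a level.

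SMMCs held both angiopoietins, and endothelium held ANGPT2 as well. ANGPT1 was an SMMC gene: it reached 36.5 ± 16.4 CPM in SMMCs (19.6, 34.4 and 67.3 as lowest, median and highest of 10 donors) and at most 3.70 CPM in any donor's FAPs, VECs, SCs, LECs, macrophages or lymphocytes. In SMMCs 11.7% of cells held an ANGPT1 UMI, and none of the 647 SCs did, which allows 1.07 CPM. ANGPT2 was found in LECs (334 ± 286 CPM, n = 4, from 89.1 to 731), SMMCs (77.3 ± 34.1, n = 10, from 15.4 to 118) and VECs (69.2 ± 62.8, n = 10, from 12.5 to 225), 3 types whose donor ranges overlapped. Other types with several donors stayed at 4.39 CPM or below on average.

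The receptors followed the endothelial annotation. KDR stood at 530 ± 69.3 CPM in VECs (440, 525 and 625 as lowest, median and highest of 10 donors) and at 285 ± 44.6 in LECs (n = 4, from 249 to 349), and neither range touched the other or that of any other type. SMMCs followed with 32.2 ± 34.8 CPM and lymphocytes with 22.2 ± 22.5. FLT4 was confined to LECs among the types with replicates: 317 ± 36.0 CPM (n = 4, from 285 to 369), against at most 10.2 CPM in any donor's other types. It was detected in 75.3% of LECs and 0.772% of VECs.

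FLT1 was high in VECs (534 ± 122 CPM; 426, 484 and 782 as lowest, median and highest of 10 donors) and next in SMMCs (84.4 ± 46.4, n = 10, from 0 to 173), whose ranges were apart. SMMCs also carried RNA of the 11 vascular endothelial markers, at a sum of 509 CPM (from 191 to 747). The count of FLT1 and KDR was 179 and 70 UMIs in SMMCs and 2210 and 2216 in VECs, and the part of endothelial RNA in the SMMC value was not tested. In LECs FLT1 varied from 0 in 2 of 4 donors to 214 CPM in a single donor.

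TEK was highest in VECs (253 ± 36.7 CPM; 202, 253 and 336 as lowest, median and highest), above LECs (70.9 ± 56.5, n = 4, from 0 to 138), SMMCs (22.7 ± 13.6) and FAPs (13.8 ± 7.57; 1.64, 12.4 and 25.9 over 10 donors). TEK UMIs occurred in 6.26% of FAPs, against 0.773% of SCs and 1.49% of macrophages. In FAPs TEK and KDR counted 92 and 37 UMIs, whereas VECs held 980 and 2216. TIE1 was endothelial in both lineages, at 92.5 ± 35.9 CPM in LECs (n = 4) and 68.5 ± 13.1 in VECs (n = 10), overlapping ranges, and lymphocytes came next with 5.32 ± 7.55. Lymphocytes held KDR, FLT1, TEK and TIE1 UMIs as well as all 11 vascular endothelial markers, at a sum of 214 CPM (from 12.5 to 506); the part of that RNA in the lymphocyte values was not tested.

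**Figure D1:**
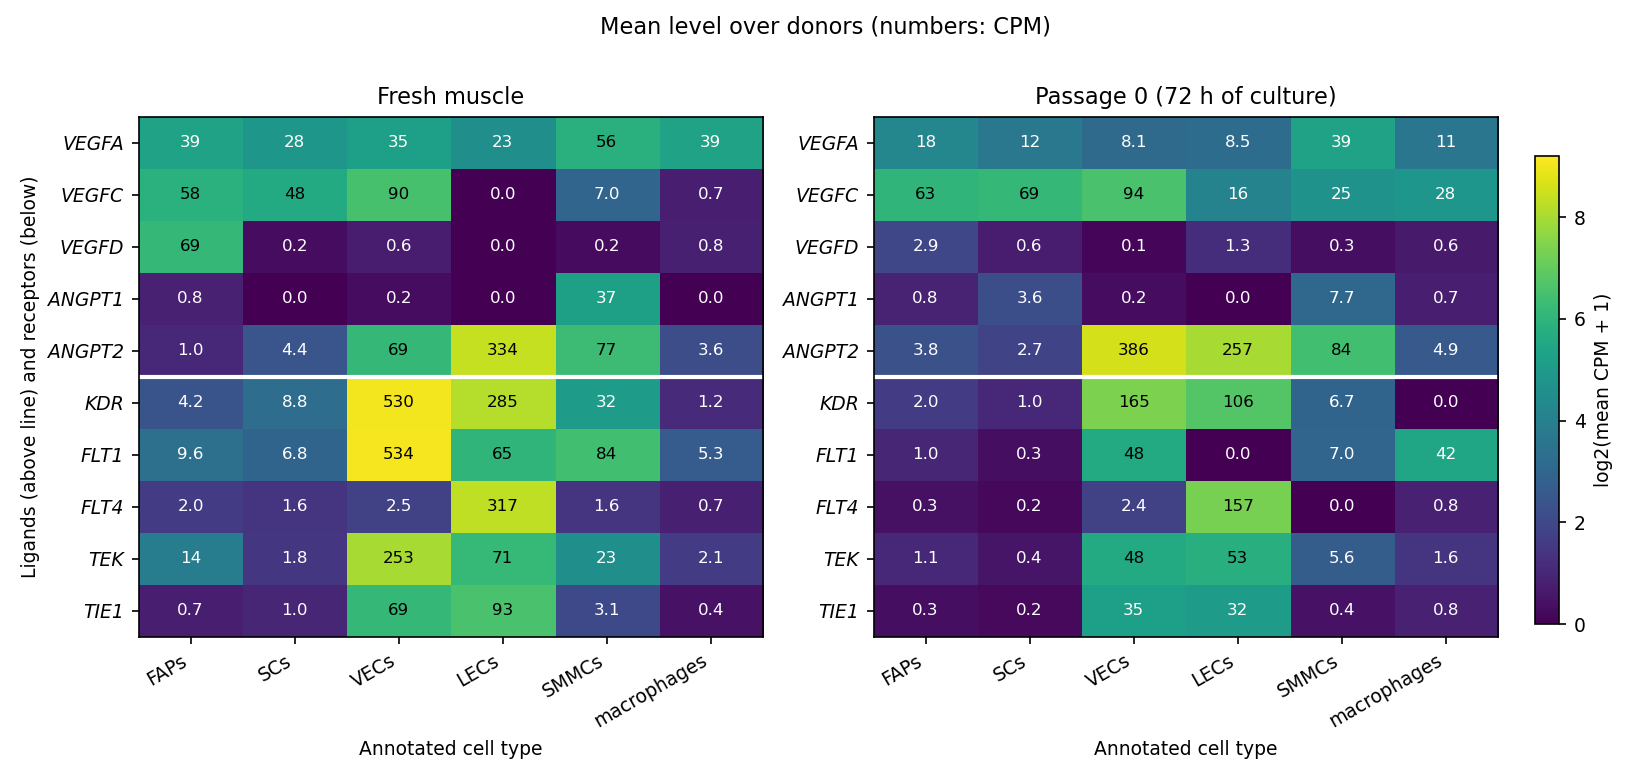
Mean level of each ligand and receptor by cell type in muscle and at P0, as numbers in CPM and as colour on a log2(mean CPM + 1) scale, with ligands above the white line and receptors below it. In muscle VEGFD stood at 68.8 CPM in FAPs and ANGPT1 at 36.5 CPM in SMMCs, while KDR, FLT1 and TEK peaked in VECs and FLT4 in LECs.

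The first comparison asked what happened to each gene inside a type as cells moved from muscle to 72 h of culture. P0 was set against muscle with edgeR (quasi-likelihood F test) across all genes passing a low-count filter. Calls required an adjusted p under 0.05 together with a log2FC beyond 1 in either direction. These fits did not pair samples by donor, and fits with the donor as a replicate block are named where given. A gene could pass the filter through its level in 1 group alone, so counts of called members do not weigh rises and falls evenly. The share of all genes without overlap between groups, or moving in 1 direction in every donor, was not counted. In VECs KDR, FLT1, TEK and TIE1 fell, as did VEGFA, and ANGPT2 rose. Of 7 members tested, 5 were called lower and 1 higher, where 35.1% of 5896 genes were called (19.5% lower and 15.6% higher). KDR fell from 530 ± 69.3 to 165 ± 47.9 CPM (log2FC -1.71 with SE 0.12, adjusted p = 1.09e-12), lower in 9 of 9 paired donors, and P0 levels of 97.1 to 238 lay wholly below muscle levels.

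FLT1 fell most among the receptors in VECs, from 534 to 48.2 ± 24.4 CPM (log2FC -3.51 with SE 0.21, adjusted p = 1.17e-12), with P0 donors between 21.6 and 103. TEK fell from 253 to 47.8 ± 15.1 CPM (log2FC -2.42 with SE 0.14, adjusted p = 7.74e-15), with P0 donors between 24.8 and 67.4. Both were lower in 9 of 9 donors without overlap. TIE1 fell less, from 68.5 ± 13.1 to 35.2 ± 14.0 CPM (log2FC -1.08 with SE 0.19, adjusted p = 1.21e-05), lower in 8 of 9 donors, with overlapping groups, and with no filter on low counts its call was lost (log2FC -0.87). Over the same interval the vascular endothelial marker sum of VECs went from 6277 to 5274 CPM.

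Among ligands in VECs, ANGPT2 rose from 69.2 ± 62.8 to 386 ± 93.5 CPM (log2FC 2.49 with SE 0.33, adjusted p = 1.54e-06), and the P0 donors, with 245, 350 and 521 as lowest, median and highest, all exceeded the highest muscle donor at 225. ANGPT2 UMIs were present in 12.3% of muscle VECs and 82.2% of P0 VECs, or 9.64% and 44.9% at 2000 UMIs per cell. VEGFA fell from 35.3 ± 14.2 to 8.13 ± 4.04 CPM (log2FC -1.94 with SE 0.25, adjusted p = 7.79e-08), lower in 9 of 9. Myocytes, with 150 CPM of VEGFA in muscle, had no labelled cells at P0. The part of myocyte RNA in the VEGFA values of VECs or other types was not tested. VEGFC was 90.5 ± 35.3 CPM in muscle and 94.3 ± 9.99 at P0 (log2FC 0.05 with SE 0.16, adjusted p = 0.78), higher in 4 of 9 donors. VEGFD, FLT4 and ANGPT1 did not pass the filter in VECs, with 2, 13 and 1 UMIs in muscle and 2, 30 and 2 at P0.

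**Figure D2:**
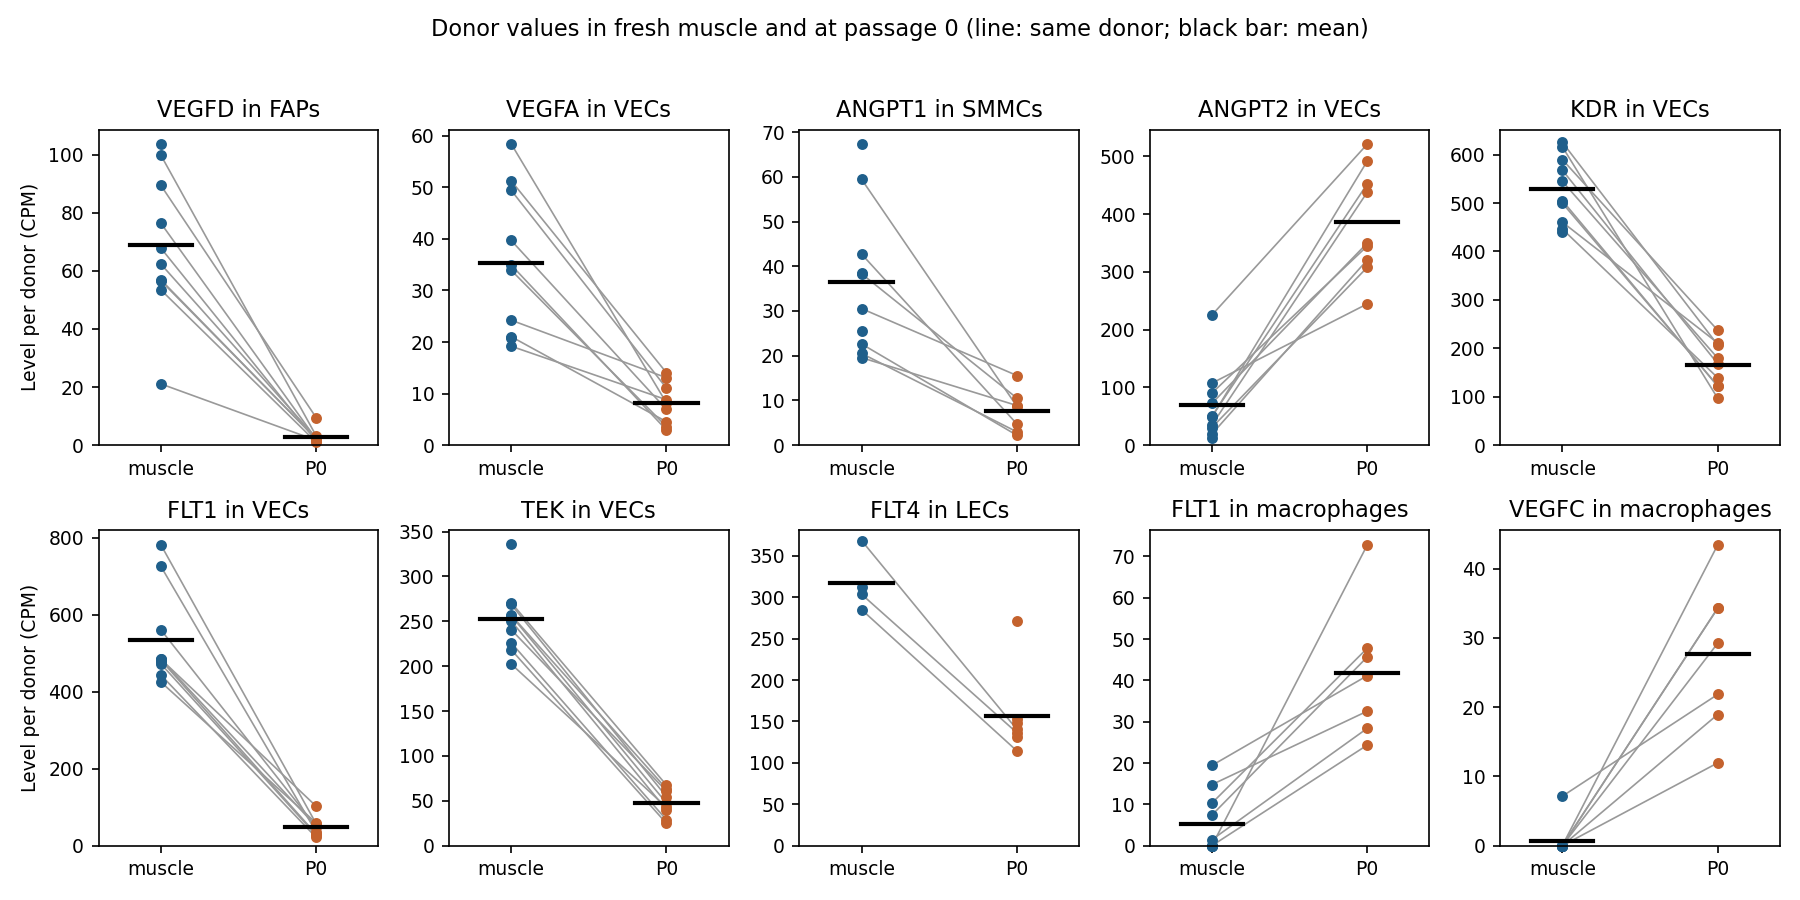
Level per donor in muscle and at P0 in selected types, as CPM with each point a donor, grey lines joining the same animal and black bars marking the mean. KDR, FLT1 and TEK fall in VECs in each of 9 paired donors while ANGPT2 rises in each, and VEGFD falls in FAPs in each.

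In LECs the lymphatic receptor FLT4 fell together with KDR and TIE1. Of 5 members tested in 4 muscle and 7 P0 donors, 3 were called lower and none higher, where 29.6% of 3034 genes were called and 14.9% were lower. FLT4 fell from 317 ± 36.0 to 157 ± 52.0 CPM (log2FC -1.09 with SE 0.24, adjusted p = 0.000526), KDR from 285 ± 44.6 to 106 ± 44.9 (log2FC -1.47 with SE 0.28, adjusted p = 0.000151) and TIE1 from 92.5 ± 35.9 to 32.2 ± 16.3 (log2FC -1.62 with SE 0.45, adjusted p = 0.00469). Each was lower in 3 of 3 paired donors, and no P0 donor reached a muscle donor. The FLT4 call was lost without muscle donor 7 (log2FC -0.99) and with no filter on low counts (-0.68).

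TEK was 70.9 ± 56.5 CPM in muscle LECs and 53.0 ± 10.5 at P0 (log2FC -0.51 with SE 0.44, adjusted p = 0.379). ANGPT2 was 334 ± 286 and 257 ± 124 CPM (log2FC -0.37 with SE 0.55, adjusted p = 0.624), and lower in 3 of 3 paired donors; with the donor as a replicate block it was called lower (log2FC -1.04, adjusted p = 0.00711; 32.8% of genes were called in that fit), whereas without muscle donor 4 the unblocked value turned to 0.32 and with no filter to 0.040. FLT1, which did not pass the filter, went from 15 UMIs in the 4 muscle donors to none among 1719894 UMIs at P0; donor 4 held 12 of the 15, donor 10 held 3, and 1 of 3 paired donors was lower. VEGFC went the other way, from none to 16.1 ± 8.24 CPM (n = 7, from 10.1 to 34.3), at least 1.28-fold higher against the floor of 3 UMIs over the 4 donors. The FAP marker sum of LECs went from 102 (from 44.6 to 178) to 815 CPM (from 385 to 1753), all 8 markers being detected in muscle and 7 at P0, while P0 FAPs held 5579 CPM of these markers and 63.3 CPM of VEGFC; the part of FAP RNA in the LEC value was not tested.

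In FAPs VEGFD, VEGFA and TEK fell, and VEGFC was not called. Of 4 members tested, 3 were called lower, where 43.4% of 9208 genes were called and 22.4% were lower. VEGFD and TEK, at 2.91 and 1.09 CPM at P0, passed the filter through their levels in muscle. ANGPT2, at 3.83 CPM at P0 and lower in muscle, did not pass, so the count of 3 in 4 favours falls. VEGFD fell from 68.8 ± 24.7 to 2.91 ± 2.56 CPM (log2FC -4.36 with SE 0.37, adjusted p = 1.89e-09); the P0 donors ran from 1.07 through a median of 2.21 to 9.52, below each muscle donor. The summed FAP markers of these cells went from 41473 to 5579 CPM in the same step. VEGFA fell from 38.7 ± 7.49 to 18.4 ± 5.66 CPM (log2FC -1.07 with SE 0.19, adjusted p = 2.47e-05), lower in 9 of 9 donors with overlapping groups. The part of myocyte RNA in this fall was not tested. The VEGFA call was lost with DESeq2 (log2FC -0.98) and with no filter (-0.80), and with pseudobulks thinned to equal depth VEGFD alone of the 3 passed the filter and was called. TEK fell from 13.8 ± 7.57 to 1.09 ± 0.725 CPM (log2FC -3.34 with SE 0.40, adjusted p = 4.55e-08), also in 9 of 9.

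The vascular endothelial marker sum of FAPs went from 242 (from 167 to 326) to 47.1 CPM (from 34.7 to 68.3) in the same step, and its part in the change of TEK was not tested. VEGFC was 57.7 ± 22.1 and 63.3 ± 18.3 CPM (log2FC 0.18 with SE 0.22, adjusted p = 0.459), higher in 5 of 9 donors. ANGPT2, which did not pass the filter, was 1.02 ± 1.44 and 3.83 ± 0.999 CPM, higher in 9 of 9. With the donor as a replicate block, where the filter kept more genes, 5 of 6 members tested were called, and 43.9% of 10533 genes: KDR was then lower (log2FC -1.02, adjusted p = 0.00994) and ANGPT2 higher (log2FC 1.88, adjusted p = 0.00166).

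In SCs VEGFC was the only member that passed the filter, and edgeR and DESeq2 did not call it; its unadjusted p was below 0.05, as it was for 76.2% of all genes, and 34.3% of 5221 genes were called. It was 48.1 ± 33.8 CPM in muscle and 68.8 ± 14.2 at P0 (39.8, 67.0 and 87.3 as lowest, median and highest of 9 donors; log2FC 0.70 with SE 0.23, adjusted p = 0.00812), higher in 8 of 9 donors. VEGFA was 28.3 ± 10.8 and 11.8 ± 3.90 CPM, and in the fit with the replicate block, where it was tested, it was called lower (log2FC -1.42, adjusted p = 7.38e-05), where 34.2% of genes were called in either direction. ANGPT1, at 0 of 2804015 UMIs in muscle SCs, reached 150 UMIs at P0, at least 3.23-fold higher, and 3.62 ± 2.31 CPM (from 0.239 to 7.08 in 9 donors). The FAP marker sum of SCs was 1126 CPM in muscle and 2563 at P0, and the SMMC sum 366 and 89.0; their part in these values was not tested.

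In SMMCs, which include mural cells, FLT1 fell from 84.4 ± 46.4 to 6.96 ± 5.34 CPM (log2FC -3.53 with SE 0.36, adjusted p = 1.06e-08), lower in 6 of 7 paired donors, and was the single call among 3 members tested, where 36.5% of 3454 genes were called and 21.3% were lower. The vascular endothelial sum of SMMCs went from 509 to 164 CPM (from 68.4 to 415), and its part in the fall was not tested. FLT1 did not pass the filter in the fit with the replicate block, which called none of the 2 members tested (33.9% of 4549 genes). VEGFA was 55.6 ± 24.3 and 38.9 ± 16.6 CPM (log2FC -0.57 with SE 0.25, adjusted p = 0.0391), lower in 5 of 7 donors.

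ANGPT2 in SMMCs was 77.3 ± 34.1 and 84.2 CPM (from 71.0 to 106 over 7 donors) (log2FC 0.07 with SE 0.20, adjusted p = 0.774). ANGPT1 did not pass the filter there, but its 7 P0 donors, from 2.22 to 15.6 CPM with a mean of 7.66 ± 4.72, all lay below the lowest muscle donor at 19.6. The summed SMMC markers of these cells went from 15723 to 4059 CPM over the same step.

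No member passed the filter in macrophages, where 34.6% of 2896 genes were called. FLT1, which monocytes also use, was at 5.34 ± 7.26 CPM in muscle and 41.8 ± 16.2 at P0, from 14 to 49 UMIs in all cells, and the 7 P0 donors (from 24.3 to 72.8) lay above all 10 muscle donors (up to 19.4). It was detected in 1.99% of muscle and 22.7% of P0 macrophages (0.501% and 8.82% at 2000 UMIs), and in 0.657% of P0 SCs. The vascular endothelial sum in macrophages was 85.1 CPM in muscle and 54.9 at P0, and KDR was at 0 UMIs at P0. The neutrophil sum went from 669 (from 0 to 2298) to 3530 CPM (from 1837 to 4803), with 3 and 2 of its 4 genes detected, and the monocyte and macrophage sum from 11362 to 2416, while muscle neutrophils held 10 FLT1 UMIs among 98772; the part of neutrophil RNA was not tested.

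VEGFC in macrophages likewise went from 0.714 ± 2.26 to 27.7 ± 10.8 CPM, with the groups apart. Over the same step their FAP marker sum went from 248 (from 64.6 to 926) to 1982 CPM (from 1506 to 2581), all 8 markers being detected at both, and its part in the VEGFC value was not tested. VEGFA went from 38.6 ± 28.0 to 11.1 ± 9.04 CPM.

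Whether types differed in the size of these changes was tested within 9 donors, among FAPs, SCs and VECs, for the 5 cases in which a member passed the filter in both types of a pair, with exact 2-sided sign-flip permutation tests of log2(CPM + 1) and a smallest possible p of 0.0039. The fall of VEGFA was smaller in FAPs (-1.16 ± 0.64) than in VECs (-2.10 ± 0.80), a difference of 0.94 ± 0.71 seen in 9 of 9 donors (exact test, adjusted p = 0.0195). VEGFC changed by 0.92 ± 0.78 in SCs and 0.08 ± 0.55 in VECs, a difference of 0.84 ± 1.07 in 8 of 9 donors (exact test, adjusted p = 0.0391). VEGFC in FAPs less SCs (-0.78 ± 0.84, exact test, adjusted p = 0.0651), VEGFC in FAPs less VECs (0.05 ± 0.80, adjusted p = 0.859, exact test) and TEK in FAPs less VECs (-0.13 ± 1.30, adjusted p = 0.859, exact test) did not pass. With a pseudocount of 10 CPM the VEGFA difference was smaller, at 0.49 ± 0.45 in 8 of 9 donors (exact test, adjusted p = 0.0195). At the same pseudocount the TEK difference turned to 1.22 ± 0.73, in 9 of 9 donors (exact test, adjusted p = 0.0195), and VEGFC in FAPs less SCs passed (-0.64 ± 0.69, exact test, adjusted p = 0.0342), so the comparison of TEK depended on how low levels were weighted.

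The type that sends or receives in a mixed sample depends on cell numbers as well as on the level per cell, and the split of each gene's UMIs combined both. The paper describes the cells of digested muscle as mononuclear, so the split leaves out muscle fibres. Among the annotated cells FAPs supplied 37.6% of a donor's VEGFA UMIs in muscle and 73.2% at P0, higher in 9 of 9 donors (exact sign-flip permutation test over 9 donors, adjusted over 10 members, p = 0.0078). VEGFC from FAPs went from 44.6% to 66.4%, higher in 8 of 9 donors (exact test, adjusted p = 0.013). FAPs took up 36.8% of all UMIs in muscle and 67.7% at P0. Shares were also taken with equal weight per type, among the types with at least 10 cells of a donor at both timepoints. LECs met this in 3 donors only. At equal weight the FAP share was 22.9% and 23.8% for VEGFA and 29.5% and 23.0% for VEGFC, neither passing the test. VEGFD from FAPs fell from 97.8% to 87.0% by UMIs and from 96.9% to 59.4% at equal weight, passing in both (exact test, adjusted p = 0.0078 and 0.0391). At P0 VEGFD counted 416 UMIs in FAPs and 32 in SCs, but 3 in LECs, 3 in SMMCs, 2 in VECs and 2 in macrophages. The equal-weight share therefore rests on single UMIs of small types: in donor 4, 1 UMI in LECs gave 3.18 CPM, against 1.07 in FAPs.

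On the receiving side the VEC share fell for KDR (86.6% to 73.6%), FLT1 (88.3% to 64.9%) and TEK (80.4% to 62.0%), each in 9 of 9 donors (exact test, adjusted p = 0.0078), as VECs went from 19.5% to 6.08% of all UMIs. None of the 3 passed at equal weight, where KDR was 81.9% in muscle and 84.4% at P0 (exact test, adjusted p = 0.463), FLT1 85.4% and 58.2%, lower in 7 of 9 donors (exact test, adjusted p = 0.0651), and TEK 83.0% and 73.4%, lower in 7 of 9 (exact test, adjusted p = 0.125). The VEC share of TIE1 was 77.7% and 78.5% (exact test, adjusted p = 0.805) and the LEC share of FLT4 78.5% and 69.6% (exact test, adjusted p = 0.347). ANGPT2 from VECs rose from 46.4% to 70.6% by UMIs, in 8 of 9 donors, and from 45.0% to 76.9% at equal weight (exact test, adjusted p = 0.0223 and 0.0391). LECs, with mean levels of 334 CPM of ANGPT2 and 285 of KDR in muscle, entered the equal-weight shares of 3 donors only. In the other donors the equal-weight VEC shares leave LECs out.

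ANGPT1 UMIs at P0 were spread mainly over 3 types. The SMMC share went from 87.1% to 17.5% in the 5 donors with at least 5 ANGPT1 UMIs at both timepoints, lower in 5 of 5, a design in which the exact test cannot go below 0.0625 (adjusted p = 0.0781). At equal weight per type SMMCs held 96.3% in muscle and 55.2% at P0, lower in 4 of 4 donors (exact test, adjusted p = 0.208, with 0.125 the smallest p possible before adjustment). Of 310 ANGPT1 UMIs at P0, SCs held 150, FAPs 121 and SMMCs 36, while the mean level was 7.66 CPM in SMMCs, 3.62 in SCs and 0.832 in FAPs, with overlapping donor ranges between neighbours.

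**Figure D3:**
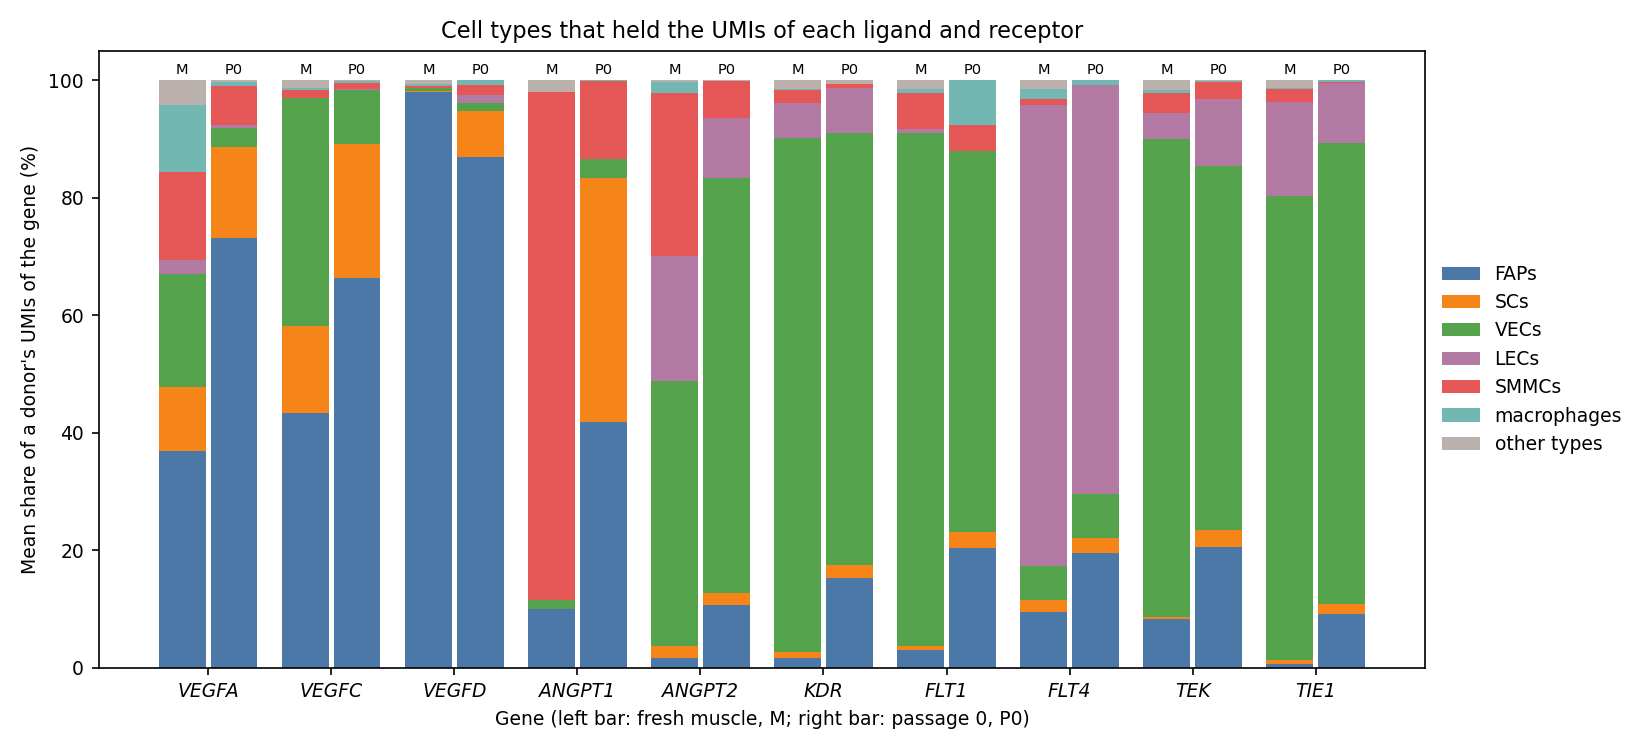
Share of each gene's UMIs held by each cell type in muscle and at P0, in percent of a donor's UMIs of the gene and averaged over donors (left bar muscle, right bar P0). FAPs hold 37.6% of VEGFA UMIs in muscle and 73.2% at P0 in the 9 paired donors, and ANGPT1 is mostly in SMMCs in muscle and mostly in SCs and FAPs at P0.

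From P2 on the cultures held FAPs and SCs alone. P2 was compared with P0 in the FAPs of the 6 donors of unsorted and sorted FAP cultures. Of 8 members tested, 2 were called higher and 3 lower, where 23.3% of 11439 genes were called (13.6% higher and 9.79% lower). ANGPT1 rose from 0.728 ± 0.390 to 8.28 ± 3.25 CPM (log2FC 3.58 with SE 0.37, adjusted p = 1.85e-06): P2 levels were 3.56, 9.98, 10.2, 9.18, 11.8 and 5.01 CPM in donors 1, 2, 4, 7, 8 and 9. FLT1 rose from 1.07 ± 0.215 to 6.30 ± 3.33 CPM (log2FC 2.70 with SE 0.36, adjusted p = 1.7e-05), with 7.36, 3.02, 10.5, 4.29, 3.01 and 9.62 CPM in the same donors. Outside the comparison, FAP-labelled cells of the SC cultures (donors 5, 6 and 10) held 0 ANGPT1 UMIs at P2, in 19, 7 and 12 cells. At P5 donor 5 held 0.679 CPM of ANGPT1 in 593 cells and donors 6 and 10 held 0, and at P8 they held 3.46, 3.57 and 1.02 CPM.

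ANGPT1 and FLT1 were both higher in 6 of 6 donors of the comparison with no overlap. In these donors the vascular endothelial sum of FAPs was 51.1 CPM at P0 (from 39.6 to 68.3) and 10.6 at P2 (from 7.69 to 13.4), and the sum of 12 SMMC markers was 78.5 (from 60.1 to 100.7) and 879 (from 726 to 1257). Their FAP marker sum was 5058 (from 4574 to 5428) and 29559 (from 17268 to 39184), and the part of any of these in the change of FLT1 or ANGPT1 was not tested. FLT1 UMIs were found in 1.96% of FAPs at P0 and 13.5% at P2 (0.248% and 0.983% at 2000 UMIs), and in 0.528% of P2 SCs at a median of 23881 UMIs against 29540 in FAPs.

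KDR, TEK and ANGPT2 fell in FAPs. KDR went from 2.01 ± 0.611 to 0.0836 ± 0.0683 CPM (log2FC -4.37 with SE 0.40, adjusted p = 5.89e-07), TEK from 0.912 ± 0.195 to 0.301 ± 0.0834 (log2FC -1.43 with SE 0.24, adjusted p = 0.000136) and ANGPT2 from 4.11 ± 1.04 to 0.397 ± 0.330 (log2FC -3.20 with SE 0.34, adjusted p = 2.14e-06), each lower in 6 of 6 donors without overlap. FLT4 and TIE1 went from 28 and 26 UMIs to none among 149293465, at least 17.7- and 16.4-fold lower. The part of endothelial RNA in these 5 falls was not tested. VEGFA (21.3 ± 3.51 and 16.4 ± 4.09 CPM, log2FC -0.22, adjusted p = 0.257), VEGFC (72.6 ± 9.94 and 58.8 ± 18.4, log2FC -0.16, adjusted p = 0.404) and VEGFD (1.98 ± 0.761 and 2.49 ± 2.50, log2FC 0.43, adjusted p = 0.479) were not called.

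In the SCs of the 6 donors of unsorted and sorted SC cultures, VEGFA fell from 11.5 ± 4.83 to 5.95 ± 1.53 CPM (log2FC -1.05 with SE 0.29, adjusted p = 0.0141), lower in 6 of 6 donors, the single call among 3 members tested, where 8.73% of 9913 genes were called and 3.24% were lower. With the replicate block the value fell short of the log2FC threshold (-0.95, adjusted p = 0.0022; 9.73% of genes were called). VEGFC (64.7 ± 14.7 and 62.2 ± 18.3 CPM, log2FC -0.06, adjusted p = 0.861) and ANGPT1 (3.86 ± 2.77 and 6.09 ± 3.61, log2FC 0.67, adjusted p = 0.426) were not called.

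In later passages edgeR without the replicate block called no member. At an unadjusted p under 0.05 there were 3 members in FAPs (P8 against P2) and 1 in SCs (P5 against P2), of 6 and 3 tested, where 13.5% and 26.3% of all genes had such a p, and DESeq2 called none in either. Of 11102 genes tested in FAPs between P2 and P8, 1.12% were called, and of 12195 in the SCs of 3 sorted SC cultures between P2 and P5, 3.01%. FLT1 in FAPs was 6.30 ± 3.33 CPM at P2 and 12.8 ± 6.64 at P8 (log2FC 1.03 with SE 0.40, adjusted p = 0.261), higher in 6 of 6 donors, and it was called with the replicate block (log2FC 1.01, adjusted p = 0.00599), as were 1.95% of genes. VEGFC in FAPs was 58.8 ± 18.4 and 97.2 ± 39.7 CPM (log2FC 0.72 with SE 0.26, adjusted p = 0.214), likewise higher in 6 of 6. In edgeR with the replicate block its adjusted p was 0.0118, with a log2FC of 0.67 that fell short of the threshold. ANGPT2 in FAPs was 0.397 ± 0.330 and 1.08 ± 0.483 CPM, from 60 and 33 UMIs (log2FC 1.39 with SE 0.46, adjusted p = 0.157), also higher in 6 of 6. VEGFC in SCs was 64.9 ± 28.1 CPM at P2 and 103 ± 8.76 at P5 (log2FC 0.72 with SE 0.28, adjusted p = 0.164), higher in 3 of 3, and it was called when P2 donor 10 was left out (log2FC 1.13, adjusted p = 0.0356). FLT4 was at 0 UMIs in every donor's FAPs and SCs from P2 to P8.

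**Figure D4:**
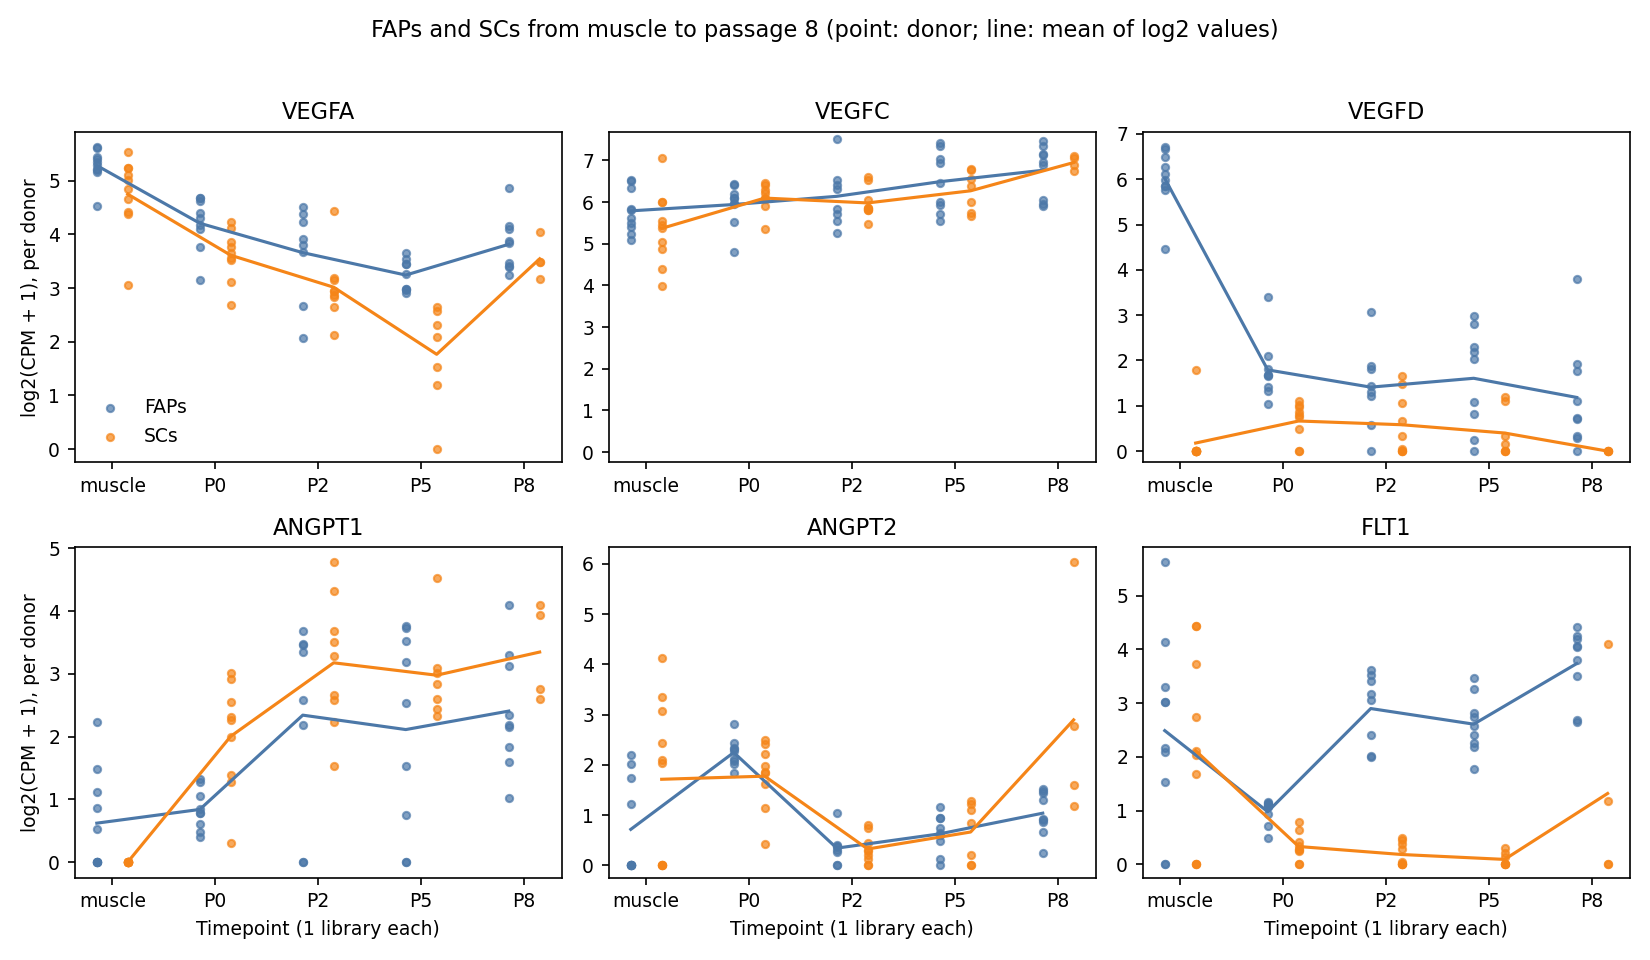
Level per donor in FAPs and SCs from muscle to P8 for VEGFA, VEGFC, VEGFD, ANGPT1, ANGPT2 and FLT1, as log2(CPM + 1), with each point a donor with at least 10 cells of the type in any culture and lines joining means. FLT1 in FAPs runs from 3.01 CPM upwards at P2 and from 2.44 at P5, above all SC donors, which reach 0.410 and 0.237, whereas at P8 FAPs from 5.28 to 20.4 CPM overlap SCs, in which donor 9 reaches 16.1 CPM with 2 UMIs in 12 cells.

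A comparison of FAPs with SCs that did not rest on the expression clusters was possible at P2, where 3 FAP cultures and 3 SC cultures had been set apart by antibody sorting. Counts were summed over all cells of a donor, 94.0% labelled as FAPs in the first and 98.9% as SCs in the second. The donors differed between the cultures, as did the coating, collagen I for FAPs and laminin-521 for SCs, so cell type, donor and coating cannot be told apart here. Of 5 members tested, 3 were called higher in FAP cultures, where 18.2% of 12199 genes were called and 11.2% were higher. VEGFA was 12.3, 11.6 and 17.9 CPM in FAP cultures (donors 4, 7 and 8) and 3.36, 5.36 and 6.73 in SC cultures (donors 5, 6 and 10; log2FC 1.61 with SE 0.29, adjusted p = 0.00833). FLT1 was 9.56, 4.03 and 2.95 CPM against 0.247, 0.337 and 0.498 (log2FC 4.08 with SE 0.54, adjusted p = 0.00316). ANGPT1 was 10.2, 9.76 and 12.1 CPM against 1.85, 5.27 and 3.67 (log2FC 1.75 with SE 0.36, adjusted p = 0.0132). Within the FAP cultures ANGPT1 was 10.4, 18.9 and 26.4 CPM in SC-labelled cells and 10.2, 9.18 and 11.8 in FAP-labelled cells. The SC-labelled values rest on 28, 28 and 9 UMIs in 95, 50 and 18 cells. These cells were left in cultures sorted for FAPs, and their labels may be wrong. In the unsorted cultures (donors 1, 2 and 9) ANGPT1 was 5.02, 11.8 and 8.74 CPM in SCs and 3.56, 9.98 and 5.01 in FAPs. The direction between cultures was thus not seen between labels within these cultures.

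VEGFA, FLT1 and ANGPT1 had no overlap between the cultures. The share of all genes without overlap was not counted, here or in the comparisons above. VEGFD was 0.448, 2.38 and 7.27 CPM in FAP cultures and 0.0309, 0.591 and 0.280 in SC cultures (log2FC 3.70 with SE 1.19, adjusted p = 0.0542; 2.47 without FAP donor 8, adjusted p = 0.15, and 4.56 without SC donor 6, adjusted p = 0.0705), and VEGFC was 60.8 ± 21.0 and 65.8 ± 27.5 CPM (log2FC 0.05 with SE 0.33, adjusted p = 0.913). FLT4 and TIE1 were at 0 UMIs in all 6 cultures, and KDR, TEK and ANGPT2 stayed at or below 1.03 CPM in each.

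Around the members, 20 further ligands, co-receptors, modifiers and relatives of the pathway were counted. Over all genes tested between muscle and P0, 21% rose and 22.4% fell in FAPs, 16.3% and 18% in SCs, 15.6% and 19.5% in VECs, 14.7% and 14.9% in LECs, 15.2% and 21.3% in SMMCs, and 14.1% and 20.5% in macrophages, which is the background for the counts below. In VECs, 7 of the 20 were tested, and 2 rose and 3 fell (median log2FC -0.82, against -0.01 over all genes). NRP1, the co-receptor of VEGFA, fell from 778 ± 138 to 78.5 ± 20.6 CPM (log2FC -3.34), PTPRB, the phosphatase that restrains TEK, from 310 to 33.2 (log2FC -3.21 with SE 0.15), and SEMA6A from 129 ± 49.7 to 12.8 ± 6.12 (log2FC -3.46). PGF, a ligand of FLT1, rose from 19.3 ± 17.2 to 341 ± 82.9 CPM (log2FC 4.33 with SE 0.34, adjusted p = 5.92e-10), in 9 of 9 donors.

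In FAPs 12 of the 20 were tested, and 2 rose and 8 fell between muscle and P0 (median log2FC -3.38, against 0.03), where 21% and 22.4% of all genes did. ANGPTL1, an angiopoietin-like secreted protein, fell from 568 ± 135 to 6.81 ± 3.71 CPM (log2FC -6.24), NRP1 from 456 CPM in muscle (log2FC -4.11 with SE 0.15), and ANGPT4, a further angiopoietin, from 31.2 ± 44.8 to 1.62 ± 1.72 (log2FC -4.09). In SCs 2 of 4 tested fell (SEMA6A and NRP1), in SMMCs 3 of 4 (ANGPTL1, NRP1 and ANGPTL2), in LECs the single gene tested (SEMA6A) and in macrophages likewise (NRP1). NRP1 was thus called lower in 5 of the 6 types and was not tested in LECs. Between P0 and P2 in FAPs 6 of 16 rose and 2 fell (13.6% and 9.79% of all genes), among them SVEP1, an extracellular matrix protein, from 3.24 ± 0.812 to 28.1 ± 6.45 CPM (log2FC 3.26); in SCs 3 of 11 rose and 2 fell (5.49% and 3.24% of all genes), among them ANGPTL4 from 30.2 ± 13.0 to 1.99 ± 0.983 CPM (log2FC -3.81).

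Of 20 endothelial genes downstream of the receptors, 16 were tested in VECs: 2 rose and 7 fell (median log2FC -0.68), where 15.6% and 19.5% of all genes did. The falls were led by the immediate early gene NR4A1, from 756 ± 325 to 3.73 ± 2.99 CPM (log2FC -7.96), and by the flow-responsive factors KLF4, from 885 ± 259 to 10.7 ± 5.83 (log2FC -6.33), and KLF2, from 52.5 ± 28.7 to 1.33 ± 1.34 (log2FC -5.45). NR4A1 was called lower in FAPs (log2FC -6.45), SCs (-4.81), LECs (-5.82), SMMCs (-7.28) and macrophages (-7.32) as well. Muscle cells were taken straight after collagenase digestion, and the part of digestion in the falls of this list was not tested. In FAPs 2 of 11 rose and 7 fell, and ESM1, a tip cell gene of endothelium, rose from 0.339 ± 0.721 to 67.6 ± 31.7 CPM (log2FC 8.00 with SE 0.80). In SCs 4 of 6 fell and none rose, in LECs 6 of 8 fell and 1 rose, in SMMCs 3 of 4 fell and in macrophages 3 of 3, against the shares of all genes given above (14.9% lower in LECs and 22.4% in FAPs).

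The 26 hypoxia response genes, a programme known to drive VEGFA, moved in both directions. In FAPs 7 of 22 rose and 7 fell, in SCs 7 and 6 of 17, in VECs 5 and 8 of 18, in LECs 4 and 4 of 14, in SMMCs 4 and 6 of 14, and in macrophages 4 and 4 of 13, where 43.4% of all genes were called in either direction in FAPs, 34.3% in SCs, 35.1% in VECs, 29.6% in LECs, 36.5% in SMMCs and 34.6% in macrophages. EPAS1 (HIF2A) rose in FAPs from 27.4 ± 8.14 to 382 ± 43.5 CPM (log2FC 3.96) and in SCs from 30.9 ± 19.7 to 304 ± 24.2 (log2FC 3.33), and fell in VECs from 1239 ± 144 to 145 ± 59.9 (log2FC -3.13). The glucose transporter SLC2A3 fell in VECs from 1487 ± 628 to 14.5 ± 7.07 CPM (log2FC -6.54). In FAP against SC cultures at P2 the 3 lists gave 9 of 17, 5 of 14 and 5 of 24 genes higher and 2, 0 and 3 lower, where 11.2% of all genes were higher and 6.99% lower; PGF, counted in the pathway and the downstream list, was 9.49 ± 1.04 against 0.863 ± 0.400 CPM (log2FC 3.64), and the adaptor SHB was 3.17 ± 1.09 against 20.6 ± 1.04 (log2FC -2.52).

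The genes most like each member were found by Pearson's r of the mean log2(CPM + 1) over 19 combinations of type and timepoint with at least 3 donors, among 11036 genes. These points share libraries and donors, so r is a description. KDR was closest to EGFL7 (r = 0.981), FAM110D and ROBO4, TIE1 to MYCT1 (r = 0.986), DIPK2B and ERG, and TEK to EMCN (r = 0.961), KDR and C2CD4B. FLT4 followed MMRN1 (r = 0.991) and ST6GAL2. FLT1 had the weakest top match among the receptors, ENG (r = 0.823), before VWF and OSBPL8. For the ligands, VEGFD was closest to ARHGAP20 (r = 0.975), ALDH1A2 and GPR1, ANGPT1 to TPM2 (r = 0.934) and SLC25A4, VEGFC to MEOX1 (r = 0.923), S100A14 and KIAA2013, ANGPT2 to PKIG (r = 0.916), STC1 and ROBO4, and VEGFA to MLX (r = 0.832), UFL1 and SNAPC1.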

How the data were processed

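Single-cell libraries (10x Chromium) of muscle, P0, P2, P5 and P8 were deposited as raw UMI counts per gene and barcode, which the authors made with Cell Ranger 6.0.1 on genome build ARS-UCD1.2 according to the submitters' processing notes. The authors' cell table gave the donor (demuxlet) and cell type of each singlet that passed their quality control; other doublets were not sought, and those within a donor cannot be seen. The combined expression table and 67 columns of the cell tables were not used. The members and all lists were chosen with earlier results of these data known.

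Counts were summed per donor and type into pseudobulks of at least 10 cells and tested in edgeR 4.0.16 (R 4.3.3; TMM, filterByExpr, robust quasi-likelihood F test, Benjamini-Hochberg over all genes tested, 2-sided); the SE was taken as log2FC over the root of the F statistic, unsigned. Groups of donors were also compared by exact sign-flip tests (scipy 1.17.1). Fewer transcripts per cell and a different mix of cells within a type cannot be told apart. Thinning drew 2000 UMIs per cell and left out shallower cells, and intervals and floors (3 UMIs) cover counting error only. Scaling by total UMIs in place of TMM shifted the median log2FC of all genes by 0.10 in SCs and 0.15 in LECs (P0 against muscle), -0.15 in FAPs (P2 against P0) and -0.17 in the cultures.

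From each of 3 lists up to 4 called genes with the largest absolute log2FC were named, beside all members and, of the 3 genes most like each, those reported here. The same donor number is the same animal, so the numbers pair the samples; deviations of same-numbered samples correlated between -0.136 and 0.186 (P0 against muscle) and between 0.113 and 0.686 in later comparisons. On simulated data with 200 changed genes, calls recovered 100% of changes of 2 on the log2 scale in FAPs and VECs (P0 against muscle, 9208 and 5896 genes), 92.5% in LECs (3034 genes) and 100% in the P2 cultures (12199 genes). For changes of 1.5 recovery was 100% in FAPs and VECs, 82.1% in LECs and 88.1% in the cultures. False calls made up 5.67% of calls in LECs and 4.48% in the cultures. The simulation gave all genes the same dispersion and had no donor effect, unlike the data, and changes under 1.5 were not simulated. Alternatives were DESeq2 1.42.0, no filter, thinned pseudobulks, a replicate block, at least 30 cells, and leaving out donors where a group had 5 or fewer. Sequences and coordinates of the members were not used here.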

Additional observations from a re-analysis of the deposited data

Results flagged for a closer look

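Of 65 groups of 4 to 10 donors in which a member averaged at least 10 CPM, 12 held a donor far from the rest. The rate of about 5% of groups set for chance does not apply directly here. The groups share donors and libraries, and their values are untransformed CPM, some from few UMIs. No excess over chance is therefore read from the 12 flagged cases. In muscle these were donor 3 for VEGFA in FAPs (22.2 CPM, the next at 34.7), for VEGFC in SCs (133 CPM, the next at 62.6) and for TEK in VECs (336 CPM, the next at 271), donor 2 for KDR in SMMCs (113 CPM, the next at 57.5) and donor 6 for ANGPT2 in VECs (225 CPM, the next at 107). At P0 they were donor 2 for VEGFC in LECs (34.3 CPM, the next at 16.2), donor 9 for FLT1 in VECs (103 CPM, the next at 59.1) and donor 1 in LECs for FLT4 (271 CPM, the next at 154) and ANGPT2 (514 CPM, the next at 297). In passages they were donor 5 for VEGFC in FAPs at P2 (181 CPM in 19 FAP-labelled cells of a sorted SC culture, the next at 90.7), donor 2 for VEGFA in FAPs at P8 (28.3 CPM, the next at 16.7) and donor 9 for ANGPT2 in SCs at P8 (64.3 CPM, from 8 UMIs in 12 cells, the next at 5.79).

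The change from muscle to P0 differed between types by test for VEGFA in FAPs less VECs (0.94 on the log2(CPM + 1) scale, exact sign-flip test, adjusted p = 0.0195) and for VEGFC in SCs less VECs (0.84, exact sign-flip test, adjusted p = 0.0391). In 4 further cases every paired donor of a type moved up and every paired donor of another moved down, and the difference was not tested. FLT1 was higher in 7 of 7 donors in macrophages and lower in 9 of 9 in VECs, ANGPT1 was higher in 9 of 9 in SCs and lower in 7 of 7 in SMMCs, and ANGPT2 was higher in 9 of 9 in FAPs and 9 of 9 in VECs and lower in 3 of 3 in LECs. Counts pooled over all LECs gave 251 CPM of ANGPT2 in muscle and 282 at P0, so the 3 donors do not settle its direction there. All muscle SC donors held 0 ANGPT1 UMIs, so any UMI in the deeper P0 cells counted as higher, as in donor 1 with 1 UMI (0.239 CPM). The 9 of 9 in SCs therefore does not measure a consistent rise.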

How the results depend on the processing

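Counts of called members moved by over 1.5 times, or from 0, in these cases. With no filter they were 5 in FAPs (3 in the report), 4 in SCs (0), 6 in SMMCs (1) and 3 in macrophages (0) for P0 against muscle, and 5 in SCs for P2 against P0 (1). With thinned pseudobulks they were 1 in FAPs, 0 in SMMCs and 0 in SCs for P2 against P0. With the replicate block (paired by donor) they were 5 in FAPs, 1 in SCs and 0 in SMMCs for P0 against muscle, 0 in SCs for P2 against P0 and 1 in FAPs for P8 against P2; beyond the calls given in the report it changed no other member's call. With at least 30 cells they were 1 in SCs and 3 in SMMCs, and this setting could not be run for LECs and macrophages. Leaving out a donor gave 0 to 1 for P5 against P2 in SCs. Calls over all genes moved as well: with no filter they rose in 7 comparisons and stayed about the same in 4. When thinned they fell in 8 and stayed about the same in 3. With the block they rose in 1 and stayed about the same in 9, and with at least 30 cells in 1 and 7. Of differences between types, 4 passed at a pseudocount of 10 CPM (2 in the report), with TEK in FAPs less VECs turned to 1.22 (exact test, adjusted p = 0.0195), and of shares 2 passed at equal weight (7 in the report), with the FAP share of VEGFC turned to -6.50 points and the VEC share of KDR to 2.49. Directions also turned for values that were not called: VEGFC in VECs when thinned (-0.35), ANGPT2 in LECs with no filter (0.040) and without muscle donor 4 (0.32, from -0.64 to 0.32 over the donors left out), TEK in LECs without muscle donor 7 (0.084, from -0.89 to 0.084), ANGPT2 in SMMCs with the block (-0.10), VEGFA in FAPs for P8 against P2 when thinned (0.024), and VEGFC in the cultures without SC donors 5 and 6 and FAP donor 4 (from -0.22 to 0.42 over the donors left out). VEGFA in FAPs lost its call with DESeq2 (-0.98) and no filter (-0.80), as did TIE1 in VECs (-0.87) and FLT4 in LECs (-0.68) with no filter, and VEGFD in the cultures gained one with DESeq2 (3.68, adjusted p = 0.00285) and without FAP donor 4 (4.24, adjusted p = 0.0187), with 2.47 to 4.56 over the donors left out. The causes were not tested. Over all genes the 124 calls for P8 against P2 were 211 with DESeq2, 217 with the block and 73 when thinned, and the 367 for P5 against P2 were 4 without P5 donor 5 and 1 without P5 donor 10. Few UMIs limit the tests between muscle and P0, which were possible for 0 of 10 members in macrophages, 1 in SCs, 3 in SMMCs, 4 in FAPs and 5 in LECs.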
